A study of Mus musculus with 8 samples.

Results

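The Myc and Max network is a family of transcription factors that includes the activators Myc, Mycl and Mycn, their shared partner Max, and the repressors Mxd1, Mxd3, Mxd4, Mxi1, Mnt and Mga. These 10 genes were picked out by name from the 46078 genes of the count table, and all 10 were among the 16495 genes with enough reads to be tested. They were read in Lgr5-traced cells of mouse skin, that is, in hair follicle stem cells and the progeny that keep their genetic label. The choice of the 10 genes was made with the difference between Treg-depleted and Treg-sufficient libraries already known. Their values in that comparison, pooled and within each experiment, are therefore given as a description with standard errors (SE) and with no test.

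All 8 libraries came from mice described by the strain Lg5-egfp-ires-creert2/R26-tdTomato and by the treatment skin injury, so no uninjured skin was compared. In such mice an inducible Cre made from the Lgr5 locus switches on a red reporter, and cells were sorted by flow cytometry. The Treg-depleted libraries (n = 4) came from skin labelled as depleted of regulatory T cells and the Treg-sufficient libraries (n = 4) from skin labelled as sufficient in them. In each condition replicates 3 and 4 were of experiment 2, and replicates 1 and 2 of experiment 1. The sources used here do not give the way regulatory T cells were removed, the age of the mice or the time after injury. Whether each replicate is its own animal is not stated either, so the p-values below measure a spread between libraries that may be partly technical.

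Myc, Mycl and Mycn bind DNA only as a dimer with Max, at E-box sequences such as CACGTG, and raise transcription of genes for ribosome making, metabolism and cell division. The Mxd proteins, Mxi1, Mnt and Mga compete for Max and for the same sites and recruit repressors, so the balance between the arms of the network is thought to set growth against differentiation. In skin, Myc is known for driving epidermal stem cells out of their resting compartment, and Mxd proteins for rising as keratinocytes stop dividing.

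Library totals over genes ran from 22330729 to 29975347 read counts, which put between 84 and 6610 counts on each network gene in each library. Some libraries stood apart. Xist, the transcript of the inactive X chromosome, was at 76.8 CPM (read counts scaled to library size) in Treg-depleted replicate 2 and at 2674 CPM in Treg-sufficient replicate 2, against 0.960 to 2.17 CPM in the other 6 libraries. Treg-depleted replicate 2 held counts for 18605 genes and Treg-sufficient replicate 3 for 19593, against 21720 to 23062 in the others. Both replicate 2 libraries belonged to experiment 1, and values within that experiment are also given without them where they moved. The labelled cell type was checked against Lgr5 itself, at 308 to 518 CPM in the Treg-depleted group and 355 to 491 CPM in the Treg-sufficient one. Of the leukocyte markers, Ptprc had at most 11 counts and Cd207 at most 13 in any library. Cd74, a chaperone of antigen presentation, had 25 to 313 counts. Its highest level was 10.8 CPM, in Treg-depleted replicate 1, and elsewhere it ran from 0.953 to 4.11 CPM.

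Compared per kilobase of merged exons, Myc and Mycn took the highest places and Mnt and Mxd1 the lowest. Over the 8 libraries the mean level was 22.9 ± 16.5 RPKM (CPM per kilobase of exon; SD, n = 8) for Myc, 18.9 ± 8.96 for Mycn, 18.8 ± 1.63 for Max, 16.8 ± 4.25 for Mxd4 and 12.4 ± 6.22 for Mycl. Then came Mga at 11.1 ± 1.77, Mxd3 at 9.27 ± 6.10, Mxi1 at 7.60 ± 1.40, Mnt at 6.62 ± 0.762 and Mxd1 at 3.53 ± 0.627 RPKM. Neighbours in this order differed by no more than the larger of their SDs, except Mnt and Mxd1, which were further apart. The order depends on the length used, as 2 other lengths chosen after seeing the data show. Per kilobase of the longest transcript, Max (34.8 ± 3.02 RPKM) and Mxd4 (30.7 ± 7.80) were above Myc (26.6 ± 19.2) and Mycn (23.3 ± 11.0), with Mnt and Mxd1 still lowest. Per kilobase of coding sequence Mxd4 and Max were again highest, and Mga and Mnt were lowest. The SDs were small beside the mean for Max, Mnt and Mga, and were largest beside it for Myc, Mxd3, Mycl and Mycn.

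**Figure D1:**
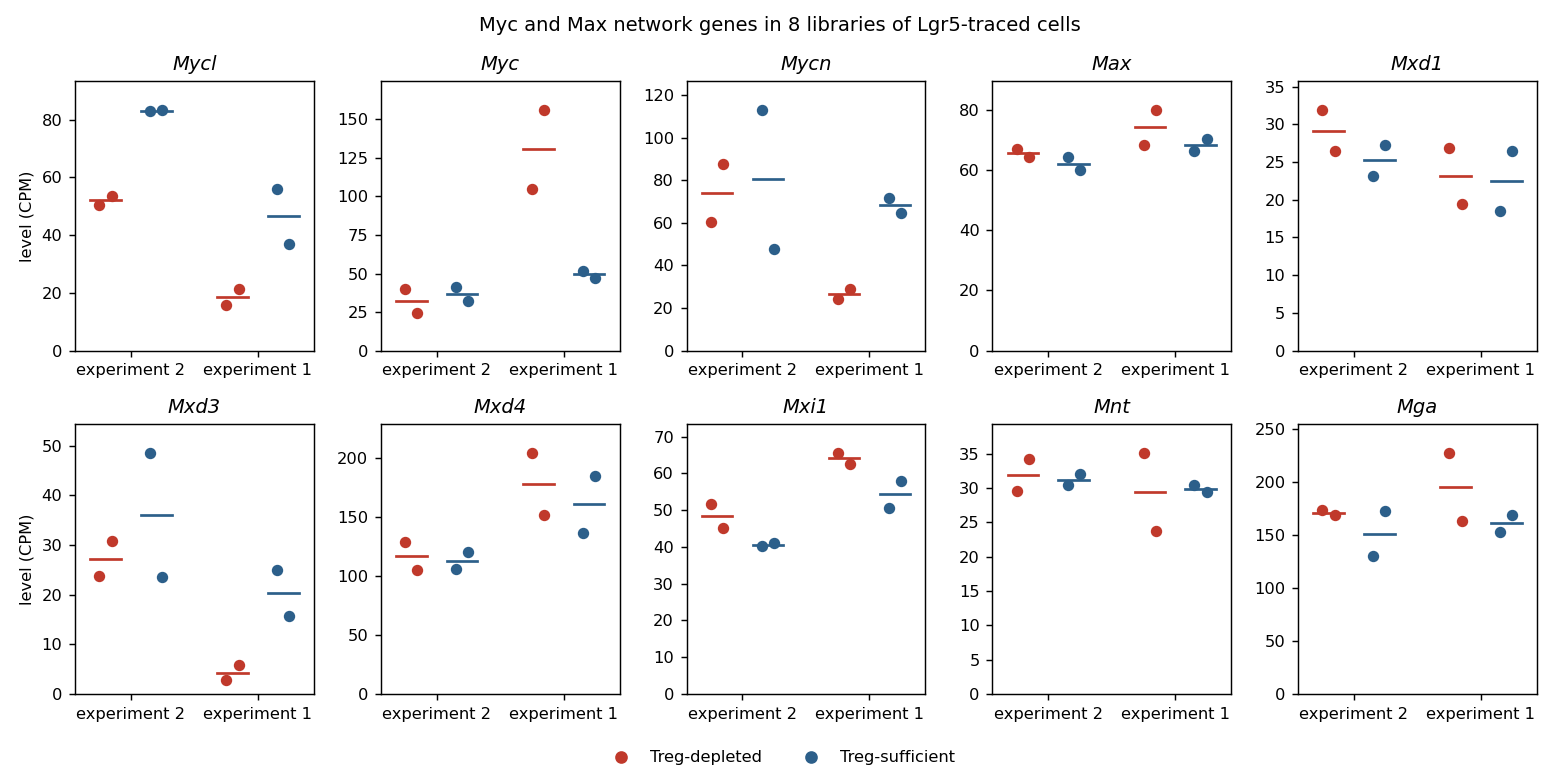
Level of each network gene (y axis, CPM) in each library, by experiment (x axis) and condition (colour); points are libraries and lines are means of 2 libraries. Mycl is lower in Treg-depleted libraries of both experiments, whereas Myc is highest in the Treg-depleted libraries of experiment 1, at 105 and 156 CPM.

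Mycl (ENSMUSG00000028654, GRCm38 chromosome 4, 122995652 to 123002485, plus strand) encodes L-Myc, the family member usually described as the weakest transforming factor. It was at 15.9, 21.3, 50.6 and 53.7 CPM in Treg-depleted replicates 1 to 4, against 56.0, 37.0, 83.0 and 83.4 CPM in Treg-sufficient replicates 1 to 4. Within each experiment every Treg-depleted library was lower than every Treg-sufficient one, but over all 8 libraries the conditions overlapped. The log2 fold change was -0.99 (SE 0.19) with the experiment number in the model, which is a fold of 0.50. It was -0.68 (SE 0.22) within experiment 2 and -1.32 (SE 0.22) within experiment 1. Without both replicate 2 libraries the difference within experiment 1 was -1.86, now between 1 library and 1 library. Across the 15 to 17 alternative settings tried, its sign was negative in every one for all 3 of these differences. As the libraries did not overlap within either experiment, leaving libraries out could hardly turn the sign, so nothing is read from this.

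Myc (ENSMUSG00000022346, chromosome 15, 61985391 to 61990374, plus strand), the founding member and an early-response gene of growth signals, showed another pattern than Mycl. It was at 105, 156, 40.1 and 24.4 CPM in Treg-depleted replicates 1 to 4, against 51.9, 47.4, 41.5 and 32.0 CPM in Treg-sufficient replicates 1 to 4. The Treg-depleted libraries of experiment 1 were the highest of all 8, while those of experiment 2 overlapped the Treg-sufficient ones. The log2 fold change was -0.19 (SE 0.28) within experiment 2 and 1.39 (SE 0.28) within experiment 1, a difference between experiments of -1.58 (SE 0.39). The pooled value was 0.61 (SE 0.34). The highest level was in a library that held Xist reads: without both replicate 2 libraries the value within experiment 1 was 0.97 and the pooled one 0.20. The sign within experiment 2 turned in 2 of 15 alternatives, with values between -0.59 and 0.12.

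Mycn (ENSMUSG00000037169, chromosome 12, 12936093 to 12941914, minus strand) encodes N-Myc, known from embryonic progenitors and neuroblastoma. Its level was 24.3, 28.8, 60.6 and 87.4 CPM in Treg-depleted replicates 1 to 4, against 71.9, 64.8, 113 and 47.9 CPM in Treg-sufficient replicates 1 to 4. The conditions were apart in experiment 1 and overlapped in experiment 2, where the Treg-sufficient libraries held both the highest and the lowest value. The log2 fold change was -0.12 (SE 0.36) within experiment 2 and -1.37 (SE 0.37) within experiment 1. Pooled over experiments it was -0.74 (SE 0.33). Leaving out Treg-sufficient replicate 3, the library with few detected genes, turned the value within experiment 2 to 0.63, while without both replicate 2 libraries that within experiment 1 was -1.61. The promoter of Mycn is shown because it alone among the 9 members with a sequence window held a match to a binding motif of the E2F factors, regulators of S phase genes. The stretch lies at chr12:12941987-12942046 (GRCm38.p6, minus strand, sequence from RefSeq), positions -210 to -151 relative to the start site and outside the exons annotated in GENCODE M21, and capitals mark the motif TTTGGCGC.
Mycn: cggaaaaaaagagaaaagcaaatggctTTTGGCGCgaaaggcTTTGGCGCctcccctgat
Searched on both strands of 32851 windows from 250 bases before to 50 bases after a gene's start, TTTGGCGC was in 0.514% of windows. The form TTTCGCGC, present on the opposite strand of the Mycn window and sharing bases with the first TTTGGCGC match, was in 0.323%. A match describes the letters in the window, not a bound site.

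Because the activators share Max, their proportions were also compared, as each gene's share of the summed RPKM of Myc, Mycl and Mycn. In Treg-depleted replicates 1 and 2 Myc made up 77.3 and 80.3% of the sum, against 34.9 and 37.7% in the Treg-sufficient libraries of the same experiment. In experiment 2 it made up 32.3 and 18.4% in Treg-depleted libraries, against 21.8 and 25.0% in Treg-sufficient ones. Experiment 1 thus showed separate ranges and experiment 2 overlapping ones. The sum itself differed less: 49.8, 71.3, 45.7 and 48.8 RPKM in Treg-depleted replicates 1 to 4, against 54.8, 46.3, 70.2 and 47.0 RPKM in Treg-sufficient replicates 1 to 4. In 6 of the 8 libraries Mycn and Mycl together held more than Myc, and the exceptions were the Treg-depleted libraries of experiment 1. With coding length in place of exon length the mean share of Myc was 45.8% in Treg-depleted and 22.8% in Treg-sufficient libraries, against 52.1% and 29.8% with exon length.

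**Figure D2:**
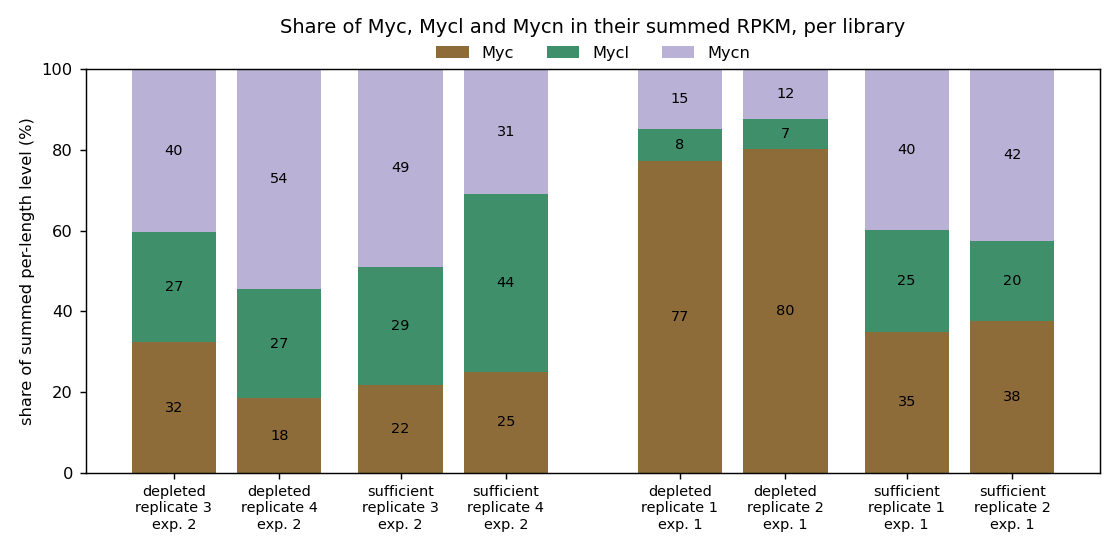
Share of Myc, Mycl and Mycn in their summed RPKM (y axis, %) for each library (x axis), grouped by experiment. Myc holds 77.3 and 80.3% in the Treg-depleted libraries of experiment 1 and between 18.4 and 37.7% in the other 6 libraries.

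Max (ENSMUSG00000059436, chromosome 12, 76937269 to 76962201, minus strand), the obligate partner, had the smallest SD beside its mean of the 10 genes. It stood at 68.3, 79.9, 66.9 and 64.3 CPM in Treg-depleted replicates 1 to 4, against 66.2, 70.4, 64.2 and 60.0 CPM in Treg-sufficient replicates 1 to 4. The libraries of the conditions overlapped in experiment 1 and were narrowly apart in experiment 2. Its log2 fold change was 0.10 (SE 0.09), and within experiment 1 it was 0.12, or 0.00 without both replicate 2 libraries.

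Among the repressors, Mxd3 differed most. Mxd3 (ENSMUSG00000021485, chromosome 13, 55325168 to 55329823, minus strand) is the Mxd member reported in S phase of dividing cells, unlike its relatives, which mark cells leaving the cycle. It was at 2.89, 5.73, 23.7 and 30.7 CPM in Treg-depleted replicates 1 to 4, against 25.0, 15.6, 48.5 and 23.6 CPM in Treg-sufficient replicates 1 to 4. The Treg-depleted libraries of experiment 1 were far below all others, and in experiment 2 the conditions overlapped. Its log2 fold change was -0.40 (SE 0.42) within experiment 2 and -2.25 (SE 0.46) within experiment 1, and -1.28 (SE 0.44) over both. Without both replicate 2 libraries the value within experiment 1 was -3.16, and over 15 alternatives that within experiment 2 ran from -0.83 to 0.20. The end of Mxd3 overlaps Prelid1, a mitochondrial gene on the opposite strand. Prelid1 had 100, 184, 105 and 118 CPM in Treg-depleted replicates 1 to 4, against 155, 136, 150 and 148 CPM in Treg-sufficient replicates 1 to 4, and whether the counting used the strand is not given in the sources used here.

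Mxi1 (ENSMUSG00000025025, chromosome 19, 53310518 to 53375810, plus strand) encodes an antagonist of Myc in growth control. Like Max, Mxd1, Mxd4 and Mga, it had a small positive log2 fold change in each experiment. Its level was 65.5, 62.6, 51.7 and 45.1 CPM in Treg-depleted replicates 1 to 4, against 50.6, 58.0, 40.2 and 41.0 CPM in Treg-sufficient replicates 1 to 4. Treg-depleted libraries were higher without overlap in each experiment. Its log2 fold change was 0.25 (SE 0.14) within experiment 2 and 0.24 (SE 0.14) within experiment 1. The sign was positive in 15 of 15 alternatives in each. Without overlap, leaving libraries out could hardly turn it, so nothing is read from this.

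For the other repressors the pooled log2 fold change was 0.10 (SE 0.14) for Mxd4, 0.13 (SE 0.17) for Mxd1, 0.00 (SE 0.14) for Mnt and 0.23 (SE 0.13) for Mga. Mxd4, the most abundant Mxd transcript here, ranged from 105 to 204 CPM in Treg-depleted libraries and from 106 to 185 CPM in Treg-sufficient ones. Mxd1, a gene of differentiating keratinocytes, ranged from 19.4 to 31.9 CPM in Treg-depleted libraries and from 18.5 to 27.3 CPM in Treg-sufficient ones. Mnt, the broadly expressed antagonist of Myc, ranged from 23.7 to 35.1 CPM in Treg-depleted libraries and from 29.4 to 32.1 CPM in Treg-sufficient ones. Mga, a large scaffold protein of a Polycomb-type repressor complex, ranged from 163 to 227 CPM in Treg-depleted libraries and from 130 to 172 CPM in Treg-sufficient ones. The ranges of all 4 genes overlapped within each experiment as well. Within experiment 1 the log2 fold changes moved without both replicate 2 libraries: to 0.49 for Mxd1, to 0.54 for Mxd4 and to 0.53 for Mga, against 0.04, 0.15 and 0.28 with them.

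The promoters of Max, Mnt and Mxd4 are shown because they held the network's own site, the E-box CACGTG, marked in capitals. The stretches, from RefSeq on GRCm38.p6, are chr12:76962246-76962305 (minus strand) for Max, chr11:74830747-74830806 (plus strand) for Mnt and chr5:34187890-34187949 (minus strand) for Mxd4, all outside exons annotated in GENCODE M21.
Max: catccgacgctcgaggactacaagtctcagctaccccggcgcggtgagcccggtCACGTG
Mnt: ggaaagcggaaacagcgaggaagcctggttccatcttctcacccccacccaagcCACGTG
Mxd4: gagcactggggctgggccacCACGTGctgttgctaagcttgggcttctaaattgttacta
The site began at position -3 relative to the start in Max, -123 in Mnt and -219 in Mxd4. Of 32851 windows 7.15% held CACGTG on either strand, and 3 of the 9 members with a window (all but Myc) did. Of the other motifs searched on both strands, CATGTG was in the Mxi1 window (14.2% of all windows), CACGCG in those of Mga and Mycl (9.27%) and TATAAA in that of Mycl (13.6%). TTTCCCGC (1.07% of windows), the Klf motif GCCACACCC (1.35%) and the Tcf/Lef motif ATCAAAG (3.73%) were not among the letters of these windows.

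**Figure D3:**
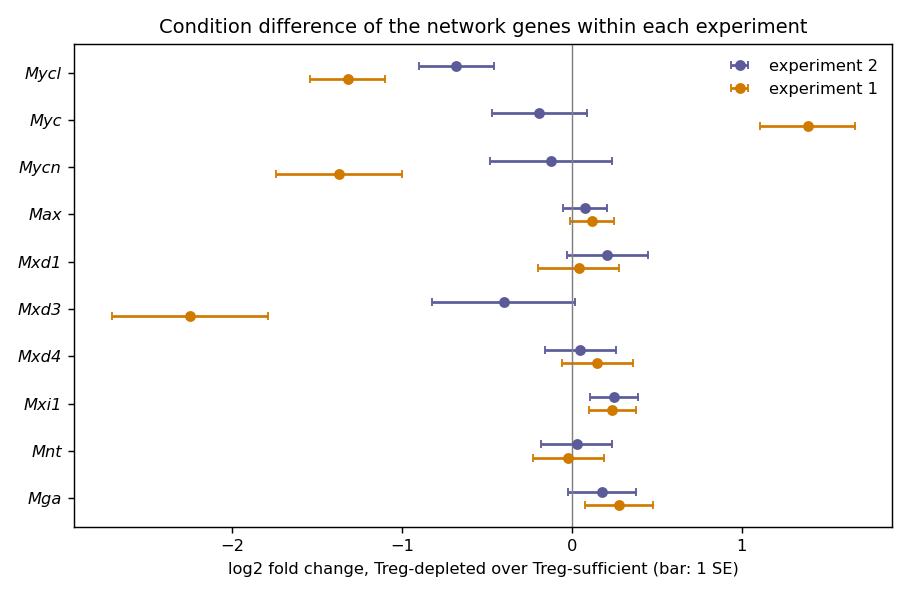
Log2 fold change of Treg-depleted over Treg-sufficient libraries (x axis) for each network gene (y axis) within experiment 2 and within experiment 1; bars are 1 SE. Mycl, Myc, Mycn and Mxd3 lie away from 0 by more than 1 log2 unit in experiment 1, and Mycl lies below 0 in both experiments, at -0.68 and -1.32.

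Counted by overlap of libraries, 1 network gene was lower in Treg-depleted libraries of experiment 2 without overlap (Mycl), where 15.9% of the 16495 genes were, and 2 were higher (Max and Mxi1), where 16.7% were. In experiment 1, 3 were lower (Mycl, Mycn and Mxd3; 19.0% of all genes) and 2 were higher (Myc and Mxi1; 18.6%). In both experiments 1 was lower (Mycl; 3.23%) and 1 was higher (Mxi1; 3.79%), and over all 8 libraries 0 were lower (1.05% of genes) and 0 higher (1.27%). These counts rest on the comparison by which the genes were chosen, and nothing is read from them. With edgeR's quasi-likelihood test and an adjusted p threshold of 0.05, 0 genes of 16495 (0%) were called between the conditions over both experiments, with 1175 (7.12%) at an unadjusted p under 0.05. By that test 0 genes (0%) were called within experiment 2, with 288 (1.75%) at an unadjusted p under 0.05, and 0 (0%) for the difference between the experiments' effects, with 923 (5.60%). In these 3 comparisons DESeq2 called 84, 1 and 182 genes, and limma-voom 0 in each. Within experiment 1 edgeR called 100 genes (0.606%) and DESeq2 721 of 15535 genes (4.64%). Without 1 library the edgeR count within experiment 1 ran from 0 (without Treg-depleted replicate 3) to 442 (without Treg-depleted replicate 2).

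The difference between experiments was not used to choose the genes and was tested. Mycl was higher in experiment 2, at 67.7 ± 18.0 CPM against 32.6 ± 18.0 CPM in experiment 1 (SD, n = 4 each), with a log2 fold change of 1.16 (SE 0.19) and an adjusted p of 0.0439 by edgeR. No gene had a smaller adjusted p in this comparison, but the adjustment gave this value to many genes alike. It therefore does not set Mycl above them. The unadjusted p of Mycl by edgeR was 0.000174. The 4 libraries of experiment 2 overlapped those of experiment 1 only through Treg-sufficient replicate 1, at 56.0 CPM. It was the only network gene called, where edgeR called 268 of 16495 genes (1.62%). That total was 0 without Treg-depleted replicate 2, Treg-depleted replicate 4 or Treg-sufficient replicate 2, between 2 and 39 without 4 others, and 651 without Treg-sufficient replicate 1. The call was lost when any library other than Treg-sufficient replicate 1 was left out, with adjusted p-values by edgeR of 0.0610 to 0.141, and the fold change then stayed between 1.01 and 1.23. It was lost too without both replicate 2 libraries (1.09, edgeR adjusted p = 0.215). Myc was lower in experiment 2, at 34.5 ± 7.93 CPM against 89.9 ± 50.9 CPM in experiment 1, with no overlap. Its log2 fold change of -1.23 (SE 0.34) missed the threshold (edgeR adjusted p = 0.0834). Most of this difference was in Treg-depleted libraries, with means of 32.2 CPM in experiment 2 and 130 CPM in experiment 1. In Treg-sufficient libraries the means were 36.7 and 49.7 CPM. Mxd4 was also apart, at 115 ± 11.7 CPM in experiment 2 and 169 ± 30.8 CPM in experiment 1 (log2 fold change -0.55, SE 0.14, edgeR adjusted p = 0.0738). Lower levels without overlap in experiment 2 were seen in 2 of the 10 and in 5.86% of all genes, and higher ones in 0 of the 10 and in 7.50%. Mxi1 (-0.41, SE 0.09, edgeR adjusted p = 0.0600), Mxd3 (1.71, SE 0.45, adjusted p = 0.0752) and Mycn (0.85, SE 0.33, adjusted p = 0.176) did not pass either. Max, Mxd1, Mnt and Mga had edgeR adjusted p-values between 0.359 and 0.757. DESeq2 called 2167 genes (13.7%), among them Mycl, Myc, Mxd3, Mxd4 and Mxi1.

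Markers of dividing cells were read beside these values, since Mycn and Mxd3 are known from dividing progenitors. The marker list was chosen with earlier results of these data known, so the p-values of its genes are a description. The summed level of 14 cycling markers was 714, 1527, 3023 and 3646 CPM in Treg-depleted replicates 1 to 4, against 3072, 2160, 4143 and 3352 CPM in Treg-sufficient replicates 1 to 4. The Treg-depleted libraries of experiment 1 were thus the lowest, and they were also the lowest for Mxd3, Mycn and Mycl and the highest for Myc. All 14 markers had a negative fold change within experiment 2 (median -0.20) and within experiment 1 (median -1.36), where the median of all tested genes was 0.00 and 0.01. Of the 14, edgeR called Cenpf, a kinetochore protein (-2.0, SE 0.19, adjusted p = 0.0144), and Ccnb2, cyclin B2 (-2.11, SE 0.30, adjusted p = 0.0364). Both were lower within experiment 1, where edgeR called 0.606% of all genes. Those calls ended without Treg-depleted replicate 3, when edgeR called 0 genes. Mki67, the common marker of proliferation, was at 140, 305, 896 and 1006 CPM in Treg-depleted replicates 1 to 4, against 862, 620, 1166 and 1024 CPM in Treg-sufficient replicates 1 to 4, and missed the threshold within experiment 1 (-1.74, SE 0.35, edgeR adjusted p = 0.0781). In bulk RNA, fewer cells of a type and less RNA per cell cannot be told apart, and the part of cycling cells in the values of Mxd3, Mycn and Mycl was not tested.

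**Figure D4:**
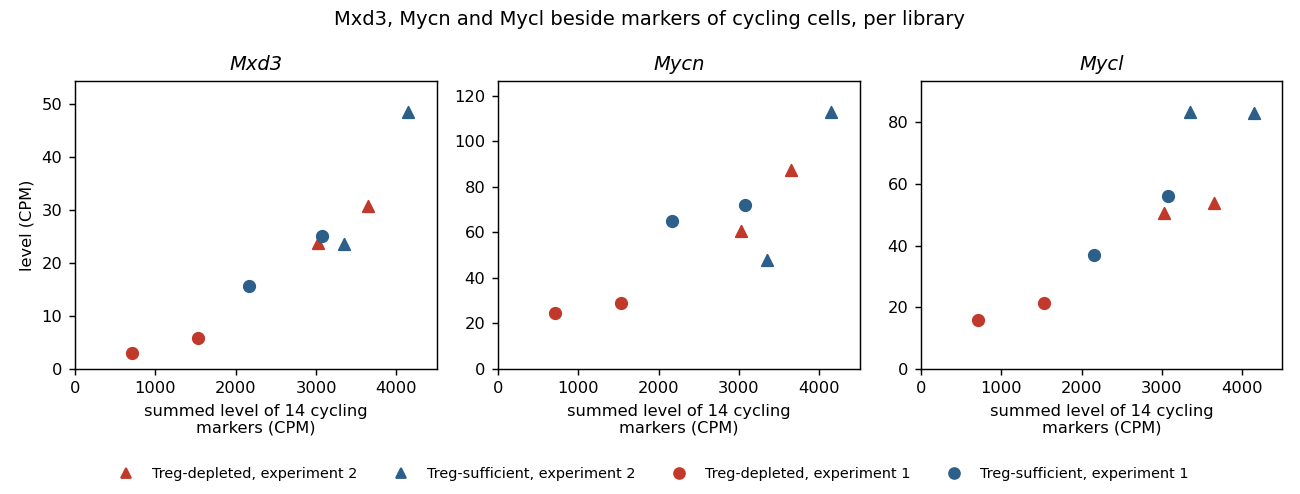
Level of Mxd3, Mycn and Mycl (y axes, CPM) against the summed level of 14 cycling markers (x axis, CPM), with 1 point per library, colour for condition and shape for experiment. The Treg-depleted libraries of experiment 1, at 714 and 1527 CPM of cycling markers, are lowest for all 3 genes.

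Markers of other cell types also differed between some groups. The sum of 7 fibroblast markers was 24.2, 36.1, 94.8 and 79.8 CPM in Treg-depleted replicates 1 to 4, against 106, 46.4, 135 and 120 CPM in Treg-sufficient replicates 1 to 4. The sum was lower in Treg-depleted libraries of each experiment, but the single markers were mixed. Their log2 fold changes were negative for 4 and positive for 3 within experiment 2, and negative for 6 and positive for 1 within experiment 1. The sum of 6 melanocyte markers ran from 58.7 to 189 CPM in Treg-depleted libraries and from 65.0 to 393 CPM in Treg-sufficient ones, and was higher in experiment 2. Endothelial markers (5 genes) summed to 1.86 to 4.01 CPM in Treg-depleted libraries and 3.92 to 8.01 CPM in Treg-sufficient ones. The sums of 10 Langerhans and dendritic cell markers were 3.72 to 13.3 CPM in Treg-depleted libraries and 1.49 to 5.74 CPM in Treg-sufficient ones. Those of 6 macrophage markers were 2.15 to 5.0 CPM in Treg-depleted libraries, where Adgre1 was at 0 throughout, and 3.11 to 3.74 CPM in Treg-sufficient libraries. For 8 T cell markers they were 1.65 to 2.20 CPM in Treg-depleted libraries, with Cd3e at 0 throughout, and 1.66 to 2.90 CPM in Treg-sufficient libraries, with Cd3g at 0 throughout. The sum of 8 follicle markers, Lgr5 and basal keratins included, ran from 14235 to 31261 CPM in Treg-depleted libraries and from 17801 to 26724 CPM in Treg-sufficient ones. The part of these cell types in the values of the network genes was not tested.

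The genes around the network were counted in 7 lists with 96 members, all of them tested. The lists were chosen with earlier results of these data known, so the p-values of their genes are a description. In edgeR 0 of 96 were called in any of the 5 comparisons. At an unadjusted p under 0.05 edgeR had 8 (8.3%) between conditions, where 7.12% of all genes were, and 11 (11.5%) within experiment 1, where 11.1% were. Within experiment 2 there were 0, where 1.75% of all genes were. For the difference between the experiments' effects there were 2 (2.1%, against 5.60% of all genes), and between experiments 20 (20.8%, against 22.0%). DESeq2 called 2 of the 96 within experiment 1, where it called 4.64% of all genes, and 12 between experiments, where it called 13.7%. Between conditions, within experiment 2 and for the difference between the experiments' effects it called 0 of the 96. Over all genes it called 84, 1 and 182 there. From the 96, limma-voom called 0 in each of the 5 comparisons.

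Myc targets for ribosome making, the textbook output of the activators, had small differences that ran opposite ways. Within experiment 2, 25 of 26 were negative (median log2 fold change -0.18), and within experiment 1, 22 of 26 were positive (median 0.11). For the difference between the experiments' effects, experiment 2 minus experiment 1, all 26 were negative (median -0.30, against -0.01 for all genes), and 0 passed at an unadjusted p under 0.05 in edgeR. Npm1, the nucleolar histone chaperone, was at 815 ± 201 CPM in Treg-depleted libraries and 938 ± 182 CPM in Treg-sufficient ones (SD, n = 4 each), and Ncl, nucleolin, at 1023 ± 250 CPM in Treg-depleted libraries and 1071 ± 183 CPM in Treg-sufficient ones. Mybbp1a, a nucleolar Myb-binding protein, was at 292 ± 68.7 CPM in Treg-depleted libraries and 290 ± 34.2 CPM in Treg-sufficient ones. These 3 were the most expressed of the list per length, and their edgeR adjusted p-values between conditions were 0.826, 0.949 and 0.999. The positive median within experiment 1 rested on Treg-depleted replicate 2, the library with the highest Myc level and the fewest detected genes: without it the median was -0.29, and -0.41 without both replicate 2 libraries. Pooled over experiments the median was -0.05. It was 0.10 without Treg-sufficient replicate 3, the other library with few detected genes, and -0.24 without Treg-depleted replicate 2. How far the negative values within experiment 2 rest on Treg-sufficient replicate 3 was not tested.

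The 22 metabolic targets behaved alike, with 17 negative within experiment 2 (median -0.21) and 15 positive within experiment 1 (median 0.09). That median, too, became negative without Treg-depleted replicate 2 (-0.26), and was -0.45 without both replicate 2 libraries. Ldha, lactate dehydrogenase A, was at 544 ± 239 CPM in Treg-depleted libraries and 435 ± 40.4 CPM in Treg-sufficient ones of experiment 1 (SD, n = 2 each), a log2 difference of 0.32 (SE 0.28, edgeR adjusted p = 0.771). Eif4a1, an RNA helicase of translation initiation, and Ran, a GTPase of nuclear transport, had log2 fold changes within experiment 1 of 0.09 (SE 0.29) and -0.24 (SE 0.38).

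Of the 11 cell cycle targets, 9 were negative within experiment 2 (median -0.24) and 10 within experiment 1 (median -0.72; -1.52 without Treg-depleted replicate 2 and -1.70 without both replicate 2 libraries). Cdk4, the kinase partner of D cyclins, was at 267 ± 60.9 CPM in Treg-depleted libraries and 391 ± 66.6 CPM in Treg-sufficient ones of experiment 1 (SD, n = 2 each; edgeR adjusted p = 0.415). Mcm5 and Mcm4, helicase subunits of DNA replication, had log2 fold changes within experiment 1 of -1.04 (SE 0.46) and -0.41 (SE 0.31). The lowest value of the list was -1.86, of Plk1, a mitotic kinase singled out after its value was seen (SE 0.42, edgeR adjusted p = 0.110). Between experiments 9 of the 11 were higher in experiment 2 at an unadjusted p under 0.05, as 11.4% of all genes were, with Cdk4 nearest the edgeR threshold among the 3 most expressed (log2 fold change 0.64, SE 0.16, adjusted p = 0.0709).

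**Figure D5:**
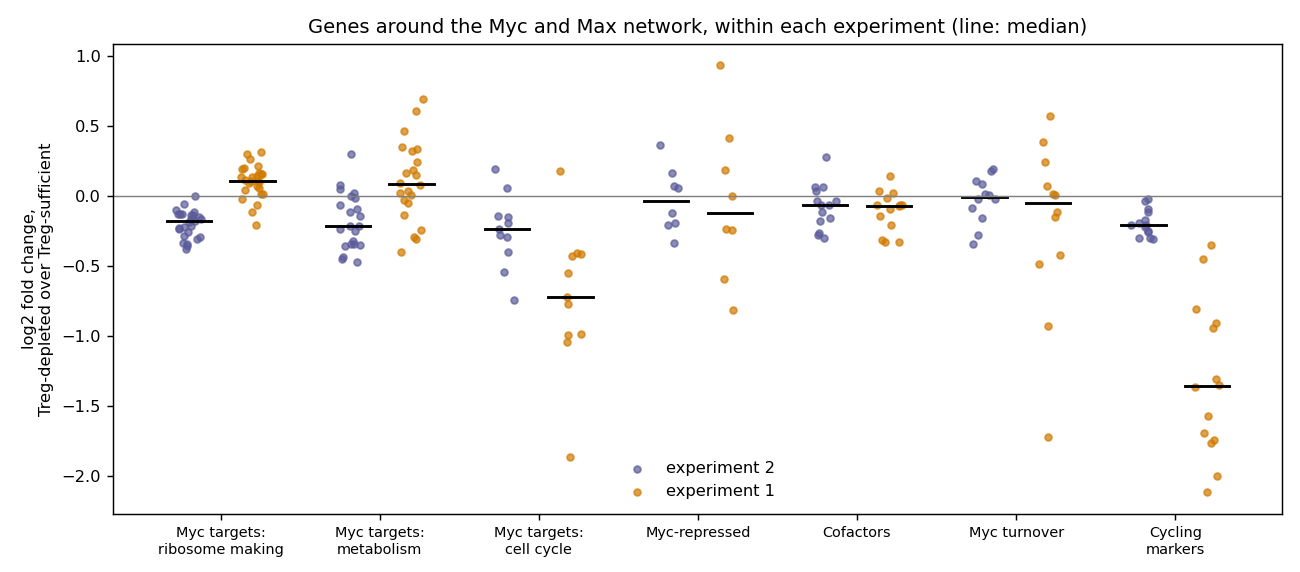
Log2 fold change of Treg-depleted over Treg-sufficient libraries (y axis) for each gene of 6 lists around the network and of the cycling markers (x axis), within experiment 2 and within experiment 1; lines are medians. Ribosome making targets lie at medians of -0.18 and 0.11, cell cycle targets at -0.24 and -0.72 and cycling markers at -0.20 and -1.36.

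The 8 genes that Myc represses split evenly, with 4 negative and 4 positive in each experiment. Their median within experiment 1 was -0.11, and -0.37 without both replicate 2 libraries. Cdkn1b, the inhibitor p27, was at 190 ± 34.8 CPM in Treg-depleted libraries and 193 ± 20.3 CPM in Treg-sufficient ones (SD, n = 4 each). Ndrg2 was at 156 ± 26.4 CPM in Treg-depleted libraries and 152 ± 18.1 CPM in Treg-sufficient ones, and Gadd45g, a stress gene, at 32.3 ± 4.34 CPM in Treg-depleted libraries and 32.1 ± 13.4 CPM in Treg-sufficient ones. Of the 14 cofactors, 10 were negative within experiment 2 and 11 within experiment 1, with a median of -0.06 in each (-0.20 within experiment 1 without both replicate 2 libraries). Hdac1 and Hdac2, histone deacetylases that Mxd complexes recruit, had log2 fold changes between conditions of -0.31 (SE 0.12) and -0.19 (SE 0.14), and Kat2a, an acetyltransferase that Myc recruits, -0.12 (SE 0.12). Among 12 factors of Myc turnover, 6 were negative and 6 positive in each experiment. Huwe1 and Gsk3b, a ubiquitin ligase of Myc and the kinase that marks Myc for destruction, differed by 0.06 (SE 0.12) and -0.05 (SE 0.09), and Pim3, a kinase of the Pim family, by 0.33 (SE 0.18). Aurka, a mitotic kinase that protects N-Myc, had the lowest value of that list within experiment 1 (-1.72, SE 0.33, edgeR adjusted p = 0.0731) and was singled out after its value was seen. In the parallel arm, Mlx, Mlxip and Mlxipl had log2 fold changes between conditions of 0.11 (SE 0.14), 0.16 (SE 0.14) and 0.08 (SE 0.29).

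The genes most like Mycl across libraries were sought among 12946 genes by Pearson's r of log2 CPM over the 8 libraries, after each experiment's mean was subtracted. They were Dlx3, a homeobox factor of the hair shaft (r = 0.988), Rab3ip (0.983), Scd2, a fatty acid desaturase (0.983), Camk1d (0.975) and Apcdd1, a Wnt inhibitor (0.975). Dlx3 was at 32.0 ± 27.8 CPM in Treg-depleted libraries and 73.8 ± 43.9 CPM in Treg-sufficient ones (SD, n = 4 each). The genes most like Myc were Mut (0.980), Capn2, a calpain protease (0.980), Arpin (0.969), Cisd3 (0.968) and Dtd1 (0.967). These values are descriptions over libraries of the same conditions and experiments, and they are the highest of 12946 values for each gene.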

How the data were processed

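RNA of sorted cells was sequenced in 8 libraries. The authors deposited raw read counts per gene, with no normalization, and 5 tallies of reads given to no gene. Per the labels' protocols, libraries were made with a stranded mRNA kit from column-purified RNA. Per the submitters' processing notes, TopHat2 (version 2), SAMtools, HTSeq and DESeq2 were used with GRCm38.p4, with no role given. The sources used here do not give the strand setting of the counting or its annotation release. Tallies stayed out of library sizes and tests. They held 6.63 to 10.8% (no gene), 2.72 to 3.01% (several genes) and 26.2 to 30.6% (several places) of all reads listed. Symbols, coordinates and lengths came from GENCODE M21, which named 45229 of 46078 identifiers.

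Tests on the counts used edgeR 4.0.16 under R 4.3.3 (filterByExpr, minimum count 10, TMM, quasi-likelihood F-test, Benjamini-Hochberg adjustment over 16495 genes, threshold 0.05). The model for condition and experiment had 5 residual degrees of freedom, and a model of 4 groups of 2 libraries had 4. CPM used TMM-scaled library sizes, and RPKM divided CPM by merged exon length in kilobases. The alternatives were other scalings and filters, DESeq2 1.42.0, limma-voom (limma 3.58.1) and left-out libraries. From each list the text names the genes past the threshold and the 3 most expressed per length. The members and lists were chosen with earlier results of these data known.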

Additional observations from a re-analysis of the deposited data

Results flagged for a closer look

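Mga stood at 227 CPM in Treg-depleted replicate 1, against 163 to 173 CPM in the other 3 Treg-depleted libraries. It was flagged because the gap to its nearest neighbour took up more of the group's range than Dixon's 95% critical value for 4 samples allows. The levels of the 10 network genes in each condition gave 20 such groups, and chance flags about 1 group in 20. No explanation was tested.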

How the results depend on the processing

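The edgeR counts of genes called moved most with the filter and the test. With no filter on low counts, 820 genes were called between conditions, 1152 within experiment 1, 132 within experiment 2, 534 for the difference between those and 2443 between experiments. DESeq2's Wald test called 84, 721, 1, 182 and 2167 genes in the same comparisons. For the 96 pathway genes, no filter gave 8 calls between conditions, 10 within experiment 1, 1 within experiment 2, 4 for the difference between those and 21 between experiments, and DESeq2 gave 2 within experiment 1 and 12 between experiments. The share of all genes called without the filter is not given here, so nothing is read from the pathway counts of that setting. Without 1 library, calls ranged from 0 to 442 within experiment 1, 0 to 9 for the difference between experiments' effects and 0 to 651 between experiments, with pathway calls from 0 to 6 within experiment 1 and 0 to 2 between experiments. Treg-depleted replicate 2 gave the highest counts within experiment 1 when left out, and Treg-sufficient replicate 1 those for the other 2 comparisons. Without both replicate 2 libraries the counts were 487, 89 and 2, with 8 pathway genes within experiment 1 and 1 for the difference between experiments' effects. The experiment difference of Mycl ranged from 1.01 to 1.36 without 1 library and was 1.09 without both replicate 2 libraries. That of Mnt (0.09) ranged from -0.01 (without Treg-depleted replicate 2) to 0.21 without 1 library and was -0.04 without both replicate 2 libraries. The causes were not tested.

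Each condition had 2 libraries in each experiment, so leaving 1 out leaves a lone library that is assumed to vary like the others. What the letters in the sample titles mean is not stated in the sources used here. Libraries of the same letter did not deviate together (correlations of -0.10 in experiment 1 and -0.12 in experiment 2). With 2 libraries per group their deviations mirror each other, so both letters of an experiment give the same correlation. These few values do not settle whether equal letters were paired. Both replicate 2 libraries, which stood apart in Xist, carried the letter B. With the letter as a replicate block, 0 genes were called between conditions, as without it. DESeq2 size factors and upper-quartile factors moved the median of all genes by less than 0.1 log2 units.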
